A study of Oryza sativa Japonica Group with 4 samples.

Results

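The short arms of rice chromosomes 4 and 10 were described as carriers of histone lysine crotonylation, between 2 and 8.7 Mb on chromosome 4 and between 2 and 7.2 Mb on chromosome 10. They held 675 of the 29736 deposited regions, namely 202 of 10923 regions of pan-lysine crotonylation (Kcr) and 473 of 18813 regions of crotonylation at lysine 14 of histone H3 (H3K14cr). A region was assigned by the position of its midpoint. The arms themselves were chosen for description with earlier results of these data known. The long arms of the same chromosomes, from 10.7 to 33.5 Mb and from 9.2 to 21.2 Mb, served for comparison with 963 Kcr and 1877 H3K14cr regions. The outer 2 Mb of each chromosome end and 1 Mb on each side of the assumed centromere were left out. The material came from seedlings of Nipponbare, a japonica cultivar, whose seeds were germinated for 72 h and whose leaves were taken at 2 weeks. All 4 libraries shared this cultivar, stage and tissue and differed in antibody, with 2 libraries made with a pan anti-Kcr antibody and 2 with an H3K14cr antibody. A mock precipitation with normal rabbit serum is described in the labels and was not analysed here.

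Crotonylation adds a short unsaturated acyl group to lysine, which removes its positive charge much as acetylation does. Acetyltransferases of the p300 family can write it in mammalian cells, proteins with YEATS domains bind it, and it is known from active promoters and enhancers. Heterochromatin is the compact, repeat-rich and gene-poor part of the genome that stays condensed between cell divisions. In rice, the short arms of chromosomes 4 and 10 are known as largely heterochromatic from stained meiotic chromosomes, whereas most of their long arms stain as euchromatin.

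The name heterochromatic could not be checked against a defining mark, because the files hold no DNA methylation, histone H3K9 methylation, repeat or gene data. Each mark has 1 list for both replicates, with a chromosome, a start and an end per region and no score. No value per replicate could therefore be given, and no p-value was computed. The read depth is unknown. Intervals below are 95% intervals that cover the counting of regions only. They take regions as independent of their neighbours, which makes them too narrow, and they were not adjusted for the number of comparisons. Where an interval of a ratio or difference is said to include or leave out 1 or 0, the units are regions, and the spread between replicate libraries is not covered.

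Both marks were sparser in the short arms than in the long arms, and the ratio was lower for Kcr than for H3K14cr on both chromosomes. On chromosome 4 the short arm held 99 Kcr regions, or 14.8 per Mb (12.01 to 18.0), and the long arm 633, or 27.8 per Mb (25.6 to 30.01). The ratio of short to long was 0.53 (0.43 to 0.66). H3K14cr on the same arms had 251 regions, or 37.5 per Mb (33.0 to 42.4), and 1267 regions, or 55.6 per Mb (52.6 to 58.7), a ratio of 0.67 (0.59 to 0.77). Neither interval of density in the short arm reached that of the long arm. On chromosome 10 the contrast was smaller. Kcr had 103 regions, or 19.8 per Mb (16.2 to 24.0), in the short arm and 330, or 27.5 per Mb (24.6 to 30.6), in the long arm, a ratio of 0.72 (0.57 to 0.90). H3K14cr had 222 regions, or 42.7 per Mb (37.3 to 48.7), against 610, or 50.8 per Mb (46.9 to 55.0), a ratio of 0.84 (0.72 to 0.98). The intervals of the single H3K14cr densities overlapped on chromosome 10, while the interval of their ratio lay just under 1. With both chromosomes summed the ratio was 0.61 (0.52 to 0.71) for Kcr and 0.74 (0.66 to 0.82) for H3K14cr.

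The short arms were not empty of crotonylation. Their Kcr regions covered 1.99% of the sequence and their H3K14cr regions 7.42%, against 3.75% and 10.6% in the long arms. The whole lists covered 3.93% and 9.55% of the span from each chromosome's start to its last region end. Regions of either mark, with overlapping ones counted once, formed 530 occupied loci in the short arms, 44.5 per Mb, and 2202 in the long arms, 63.3 per Mb.

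Kcr made up a somewhat smaller part of the regions in the short arms. It accounted for 202 of 675 regions, or 29.9% (Wilson interval 26.6 to 33.5%), against 963 of 2840, or 33.9% (32.2 to 35.7%), in the long arms. The difference was -3.98 percentage points, with an interval of -7.75 to -0.03 that barely left out 0. On single chromosomes the difference was -5.03 points (-9.98 to 0.33) for chromosome 4 and -3.41 points (-9.15 to 2.62) for chromosome 10, so neither was resolved alone. In the whole lists Kcr made up 36.7% (36.2 to 37.3%) of the regions. A low share was also found outside the short arms. The first 7 Mb of the chromosome 4 long arm had 27.4% (22.9 to 32.3%), beside 28.3% (23.8 to 33.2%) in the short arm and 34.6% (32.3 to 37.01%) in the rest of the long arm.

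**Figure D1:**
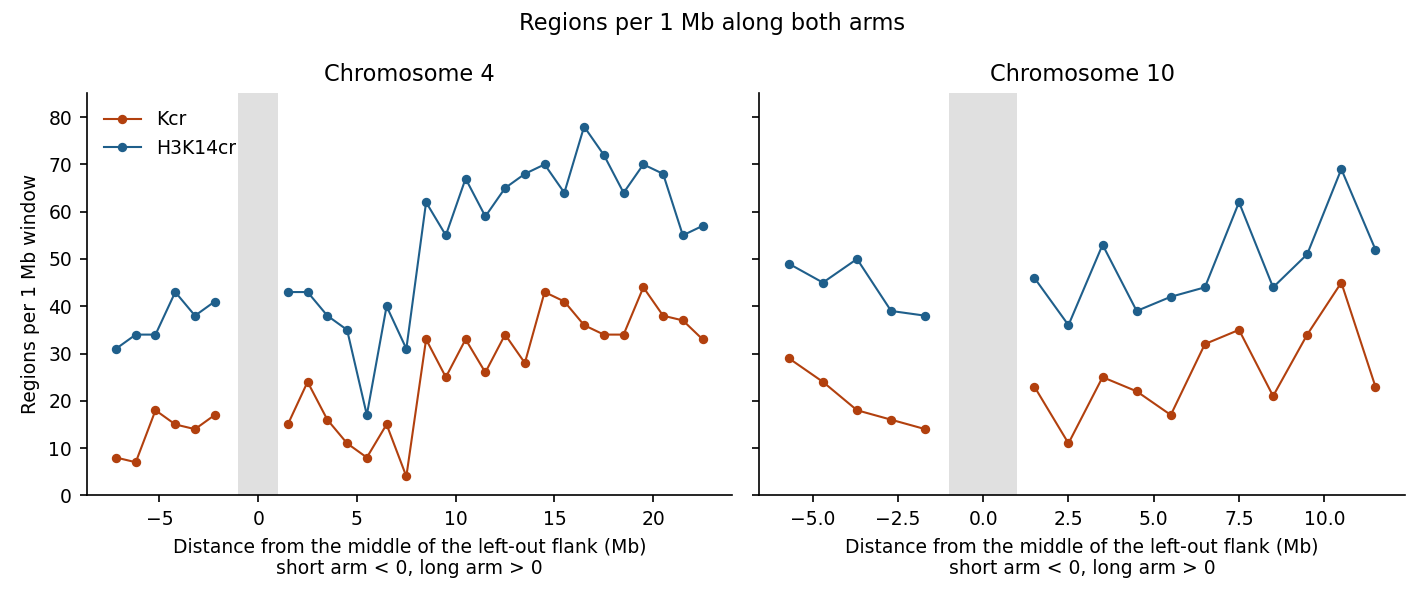
Number of Kcr and H3K14cr regions in each full 1 Mb window of the arms of chromosomes 4 and 10 (y axis), against the distance of the window's middle from the middle of the left-out centromere flank in Mb (x axis, short arm below 0, grey band for the flank). On chromosome 4 the short-arm windows held 7 to 18 Kcr regions, and the first 7 windows of the long arm 4 to 24, before the counts stepped up.

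Along the chromosome 4 short arm, Kcr was poorest away from the centromere. The 6 full windows of 1 Mb held, from the chromosome end towards the centromere, 8, 7, 18, 15, 14 and 17 Kcr regions. The same windows held 31, 34, 34, 43, 38 and 41 H3K14cr regions. Both Kcr-poor windows, from 2000001 to 4000000, thus stood beside H3K14cr numbers little under those of the windows that followed. The mean was 13.2 ± 4.62 Kcr regions (SD, n = 6 windows) and 36.8 ± 4.62 H3K14cr regions. Long-arm windows of chromosome 4 averaged 27.8 ± 11.7 and 55.5 ± 15.9 (n = 22 windows). The remaining 0.7 Mb of the short arm, next to the centromere flank, was richer, with 20 Kcr and 30 H3K14cr regions, or 28.6 and 42.9 per Mb.

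On the chromosome 10 short arm Kcr went the other way. The 5 full windows held 29, 24, 18, 16 and 14 Kcr regions from the chromosome end inwards, so each window held fewer than the one before it. H3K14cr had 49, 45, 50, 39 and 38 regions in the same windows and no such steady order. The distal 2.6 Mb of this arm held 64 Kcr regions, or 24.6 per Mb (19.0 to 31.4), and the proximal 2.6 Mb 39, or 15.0 per Mb (10.7 to 20.5). On chromosome 4 the distal 3.35 Mb held 40, or 11.9 per Mb (8.53 to 16.3), and the proximal 3.35 Mb 59, or 17.6 per Mb (13.4 to 22.7). These intervals overlapped on both chromosomes. In 500 kb windows, Spearman's rho between the numbers of both marks was 0.41 over 13 windows of the chromosome 4 short arm and 0.74 over 10 windows of the chromosome 10 short arm. The long arms had 0.74 over 45 windows and 0.72 over 23 windows. These are descriptions, since windows of 1 arm share its gradient.

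Set against the genome, the chromosome 4 windows were among the poorest in Kcr. A full 1 Mb window of the 12 chromosomes held a median of 28 Kcr regions, with a lower quartile of 21.5 over 367 windows. All 6 short-arm windows of chromosome 4 lay below that quartile, and 1 of them held 7, the fewest of any window in this grid, which was laid from each chromosome start. With windows laid from the start of the long arm of chromosome 4, its window from 16700001 to 17700000 held 4. On chromosome 10, 3 of 5 windows lay below the quartile and 4 of 5 below the median. For H3K14cr, with a median of 50 and a lower quartile of 42, 5 of 6 windows on chromosome 4 and 2 of 5 on chromosome 10 lay below the quartile.

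The step on chromosome 4 did not fall at the centromere. The first 7 Mb of its long arm, from 10.7 to 17.7 Mb, held 93 Kcr regions, or 13.3 per Mb (10.7 to 16.3), and 247 H3K14cr regions, or 35.3 per Mb (31.0 to 40.0). These densities lay within the intervals of the short arm. The rest of the long arm had 34.2 Kcr regions per Mb (31.4 to 37.2) and 64.6 H3K14cr regions per Mb (60.7 to 68.6). On chromosome 10 the first 7 Mb of the long arm had 23.6 Kcr regions per Mb (20.1 to 27.5) and the rest 33.0 (28.2 to 38.5). The border at 7 Mb was chosen after the windows had been seen, and it favours a large step on chromosome 4. Without the first 7 Mb of both long arms, the ratio of short to long was 0.50 (0.43 to 0.59) for Kcr and 0.63 (0.57 to 0.70) for H3K14cr.

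The stretches next to the limits of the short arms were not uniformly poor or rich. On chromosome 4 the last 1 Mb inside the proximal limit held 26 Kcr and 43 H3K14cr regions, and the 1 Mb just outside it held 18 and 27. On chromosome 10 the last 1 Mb inside held 10 Kcr and 30 H3K14cr regions, and the 1 Mb just outside held 30 and 37. The chromosome 4 end of 2 Mb that was left out held 63 Kcr regions, or 31.5 per Mb (24.2 to 40.3), and that of chromosome 10 held 51, or 25.5 per Mb (19.0 to 33.5).

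The short arms were also set beside stretches of other chromosomes at the same distance from the start. The same interval, 2 to 8.7 Mb, was counted on each of the 12 chromosomes. Chromosome 4 had the lowest Kcr density of the 12, and the 10 chromosomes other than 4 and 10 ranged from 23.3 per Mb on chromosome 9 to 41.9 on chromosome 3, with a median of 28.1. Its H3K14cr density of 37.5 per Mb was also the lowest, but close to the 40.4 of chromosome 9. In the interval from 2 to 7.2 Mb, chromosome 10 had the second lowest Kcr density after chromosome 4. The other 10 ranged from 25.4 to 41.5 per Mb, against 19.8 on chromosome 10. For H3K14cr, chromosome 10 with 42.7 per Mb had rank 4 from the bottom, inside the range of the other 10, which was 38.7 to 65.8. Centromere positions of the other chromosomes were not used, so these intervals may hold other kinds of chromatin there.

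**Figure D2:**
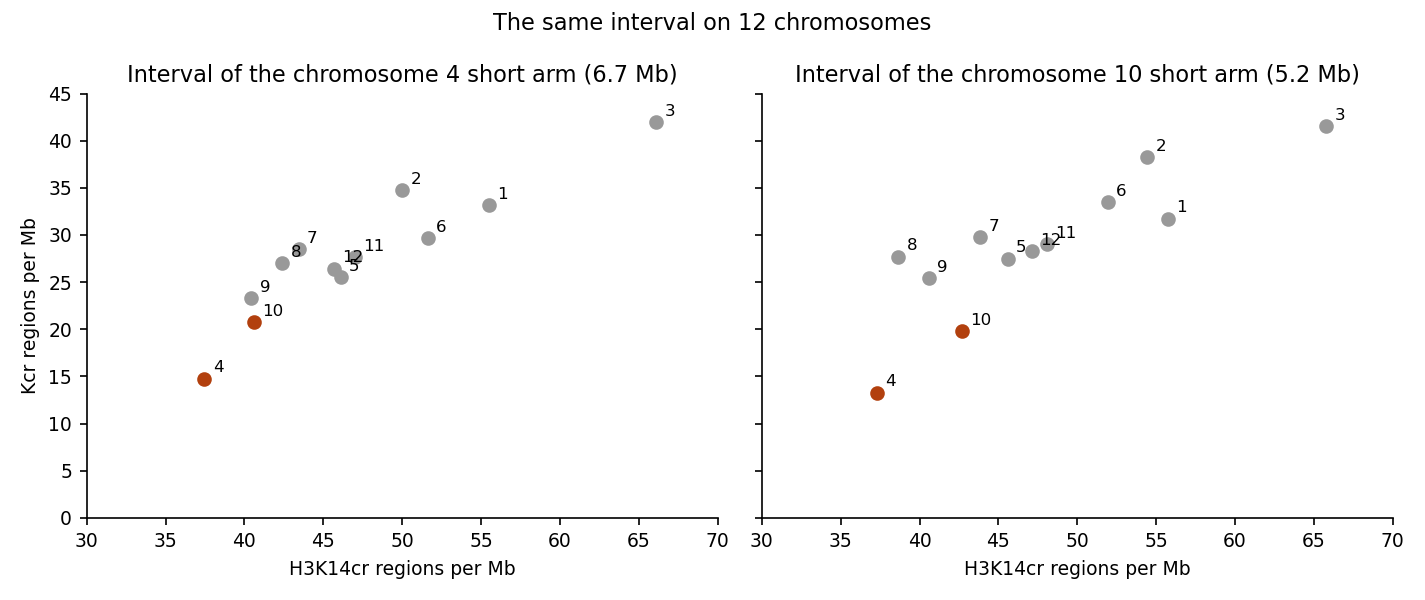
Kcr regions per Mb (y axis) against H3K14cr regions per Mb (x axis, starting at 30) in the interval of the chromosome 4 short arm (left) and of the chromosome 10 short arm (right), counted at the same distance from the start of each of the 12 chromosomes, which are numbered. Chromosomes 4 and 10 (red) lay below the Kcr densities of the other 10, which started at 23.3 and 25.4 per Mb.

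Wide Kcr regions were rare in the short arms. Regions over 2000 bp numbered 7 among 202 Kcr regions, or 3.47% (1.69 to 6.98%), and 94 among 963 in the long arms, or 9.76% (8.04 to 11.8%). The difference was -6.30 percentage points (-9.00 to -2.38). The whole Kcr list had 9.41%. On chromosome 4 there were 2 such regions in the short arm and 69 in the long arm, or 0.30 and 3.03 per Mb. This ratio of 0.10 (0.01 to 0.37) was the lowest among the classes compared (all, shared, alone, up to 2000 bp and wider, for either mark) on the 2 chromosomes. On chromosome 10 there were 5 and 25, a ratio of 0.46 (0.14 to 1.23), whose interval included 1. The median Kcr width was 1104 bp (1059 to 1144 bp; quartiles 974 and 1325 bp) in the short arms. It was 1230 bp (1212 to 1261 bp; quartiles 1037 and 1550 bp) in the long arms and 1205 bp in the whole list. The medians of the short arms of chromosomes 4 and 10 were nearly equal, at 1108 and 1101 bp. Long-arm Kcr regions were narrower in the first 7 Mb of chromosome 4, with a median of 1146 bp, than in its rest, with 1300 bp. In the position-matched intervals, chromosomes 4 and 10 each had rank 3 of 12 from the narrowest, inside the range of the other chromosomes (1100 to 1407 bp and 1100 to 1418 bp).

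H3K14cr regions were also narrower in the short arms than in the long arms, with both chromosomes summed. The median was 1548 bp (1472 to 1647 bp) in the short arms and 1701 bp (1656 to 1747 bp) in the long arms, beside 1621 bp in the whole list. Regions over 2000 bp made up 30.4% (26.5 to 34.7%) and 37.7% (35.6 to 39.9%), a difference of -7.28 points (-11.8 to -2.47). Between chromosomes, the difference was -8.14 points (-14.3 to -1.54) on chromosome 4 and -3.38 points (-10.1 to 3.80) on chromosome 10. The intervals of the short-arm and long-arm medians overlapped on each chromosome. In the position-matched intervals, chromosome 4 with 1577 bp had rank 10 of 12 from the narrowest, above the median of 1496 bp of the other 10. Chromosome 10 with 1523 bp had rank 5. The first 7 Mb of the chromosome 4 long arm had a median of 1584 bp, near that of the short arm. The short arms still held very wide H3K14cr regions. The widest on chromosome 4 spanned 2955948 to 2962069 (6121 bp), had no Kcr region on it and lay 6035 bp from the nearest one. The widest on chromosome 10 spanned 4696853 to 4703767 (6914 bp), likewise without Kcr, and lay 24476 bp from the nearest Kcr region. The next on chromosome 4, from 6938886 to 6944297 (5411 bp), held a Kcr region of 902 bp at 6943329 to 6944231, near its higher-coordinate end. The next on chromosome 10, from 5311787 to 5316239 (4452 bp), had none.

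The widest Kcr regions of the short arms were moderate in size. On chromosome 4 the widest spanned 5846993 to 5849169 (2176 bp) and lay inside an H3K14cr region from 5846643 to 5849351 (2708 bp). The second spanned 2910525 to 2912540 (2015 bp) inside an H3K14cr region from 2908501 to 2913684. On chromosome 10 the widest spanned 3940213 to 3942660 (2447 bp) and enclosed an H3K14cr region from 3940475 to 3942043 (1568 bp). The second spanned 2887603 to 2889973 (2370 bp) inside an H3K14cr region from 2887371 to 2889980 (2609 bp). All 4 were thus shared with H3K14cr. The widest Kcr region alone was 1648 bp on chromosome 4 (7981420 to 7983068), 1130 bp from the nearest H3K14cr region. On chromosome 10 it was 2364 bp (5644735 to 5647099), 11366 bp from the nearest.

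**Figure D3:**
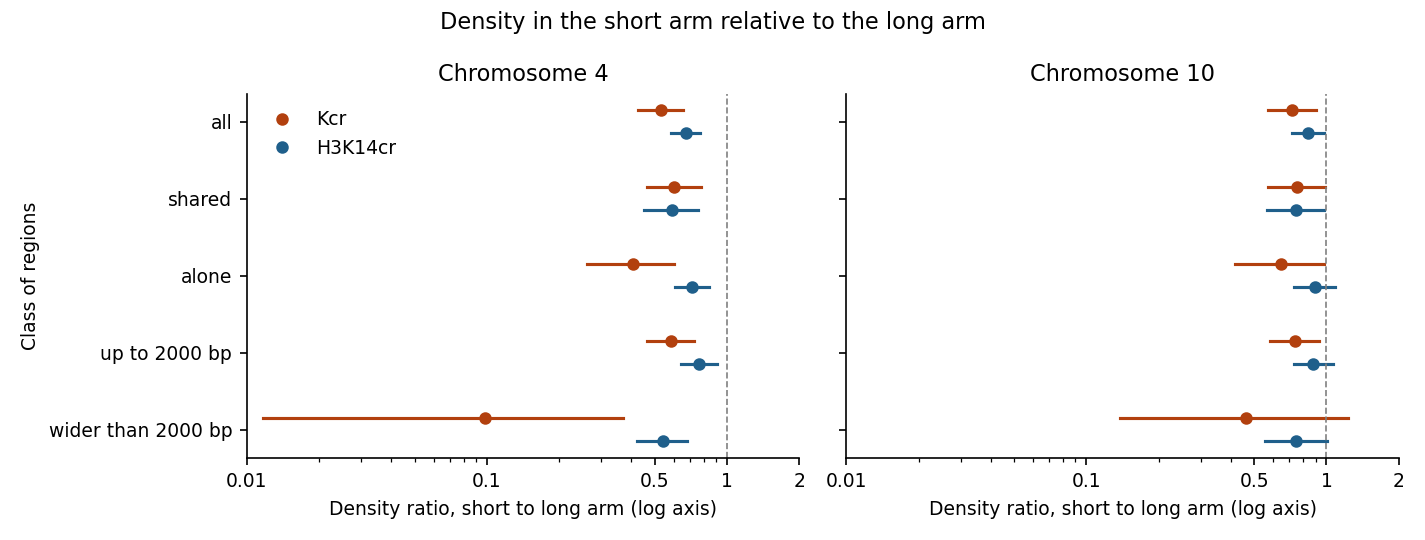
Ratio of region density in the short arm to that in the long arm (x axis, log scale, dashed line at 1) for classes of Kcr and H3K14cr regions (y axis) on chromosomes 4 and 10; bars are exact 95% intervals for counting error. Kcr regions over 2000 bp on chromosome 4 had the lowest ratio, 0.10, from 2 and 69 regions.

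Sharing was measured as overlap of at least 1 bp with a region of the other list. Of the short-arm Kcr regions, 145 of 202, or 71.8% (65.2 to 77.5%), overlapped H3K14cr, against 629 of 963, or 65.3% (62.3 to 68.3%), in the long arms. The difference of 6.47 percentage points had an interval of -0.73 to 12.98, so it was not resolved at this number of regions. With both lists cut to their wider 50% the order turned, with 46.6% (35.6 to 57.9%) and 47.8% (43.5 to 52.1%). This cut also removed H3K14cr partners under the median H3K14cr width. With the full H3K14cr list, Kcr regions over 1379 bp were shared in 88.4% of cases in the short arms and 81.5% in the long arms. Over all short-arm Kcr regions, the shares were 72.7% (72 of 99) on chromosome 4 and 70.9% (73 of 103) on chromosome 10. In the position-matched intervals each of these was the highest of the 12 chromosomes. The other 10 ranged from 59.7 to 66.0% in the interval of chromosome 4 and from 55.6 to 65.2% in that of chromosome 10. Shares in neighbouring parts of the same chromosomes lay on both sides of the short-arm shares. In the first 7 Mb of the long arm they were 73.1% on chromosome 4 and 69.1% on chromosome 10. The left-out centromere flanks had 88.5% and 63.8%, and the left-out first 2 Mb had 66.7% and 80.4%. In the whole list the share was 63.9% (63.0 to 64.8%).

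From the H3K14cr side the order was the reverse. Of the short-arm H3K14cr regions, 144 of 473, or 30.4% (26.5 to 34.7%), overlapped Kcr, against 635 of 1877, or 33.8% (31.7 to 36.0%), in the long arms and 37.1% in the whole list. The difference between the arms was -3.39 points (-7.92 to 1.39), an interval that included 0. With both lists cut to their wider 50%, the shares were 15.2% (11.1 to 20.5%) in the short arms and 24.2% (21.7 to 27.0%) in the long arms. This cut also removed Kcr partners under the median Kcr width. The proportion of Kcr regions removed was larger in the short arms, and the Kcr density ratio of short to long fell to 0.41. These shares thus do not give the overlap of wide H3K14cr regions with the full Kcr list. Counted as occupied loci, the short arms had 144 loci with both marks, 57 with Kcr alone and 329 with H3K14cr alone. Their densities relative to the long arms were 0.67 (0.56 to 0.81), 0.50 (0.37 to 0.66) and 0.77 (0.68 to 0.88). H3K14cr-alone loci thus made up 62.1% of short-arm loci and 56.4% of long-arm loci, and Kcr-alone loci 10.8% and 15.2%. On chromosome 4 there were 27 Kcr-alone loci in the short arm, a ratio of 0.40 (0.26 to 0.60), and on chromosome 10 there were 30, a ratio of 0.65 (0.42 to 0.98). A mark missing from a locus cannot be told from a signal under the unknown threshold of its list.

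Overlap depends on how much of an arm the other list covers. H3K14cr covered 7.42% of the short arms and held 71.8% of the Kcr bases there, a ratio of 9.68. In the long arms it covered 10.6% and held 65.2% of the Kcr bases, a ratio of 6.17. The whole lists gave 6.56. The ratio was 10.1 in the short arm and 5.66 in the long arm of chromosome 4, and 9.19 and 7.39 on chromosome 10. Between the arms the coverage differed relatively more than the held share did, so much of the contrast comes from the divisor. No interval was computed for these ratios.

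Short-arm Kcr regions were narrower, and in both arms narrow Kcr regions were shared less often. To compare like widths, the Kcr list was divided at 1080 and 1379 bp into 3 classes of nearly equal size. In the narrowest class 57.3% (55 of 96) of the short-arm regions were shared, against 51.0% in the long arms. The difference was 6.26 points (-5.23 to 17.3). In the middle class 82.5% (52 of 63; 71.4 to 90.0%) were shared in the short arms and 61.5% (206 of 335; 56.2 to 66.5%) in the long arms, a difference of 21.0 points (8.80 to 30.2). In the widest class the shares were 88.4% (38 of 43) and 81.5%, a difference of 6.82 points (-6.57 to 14.8). The short arms were higher in each of the 3 classes, and the interval of the difference left out 0 in the middle class alone. The narrowest class made up 47.5% of short-arm Kcr regions and 30.3% of long-arm ones. For H3K14cr the corresponding differences in share were -4.60 (-12.6 to 3.92), -0.12 (-7.78 to 8.16) and -7.78 points (-14.8 to 0.45), none of them resolved.

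**Figure D4:**
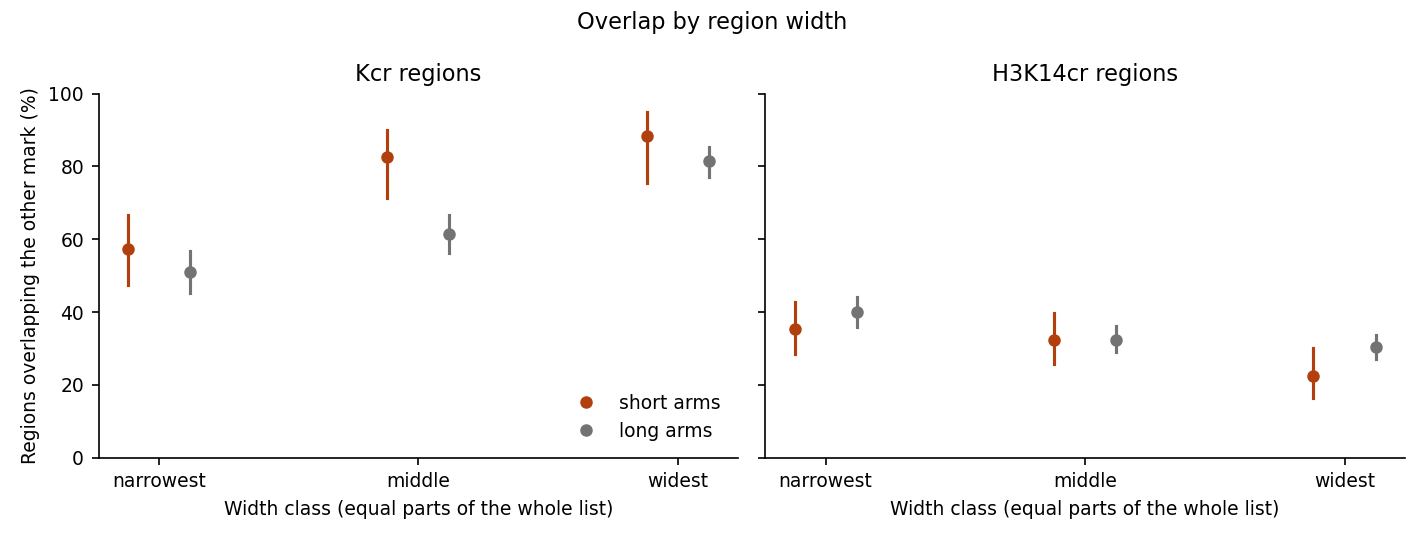
Percentage of regions that overlapped the other mark (y axis) in 3 width classes of each list (x axis), in the short arms (red) and the long arms (grey) of chromosomes 4 and 10 summed; bars are 95% Wilson intervals. The arms differed beyond their intervals for Kcr regions of middle width, with 82.5% in the short arms and 61.5% in the long arms.

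Where the marks overlapped in the short arms, Kcr more often lay within the H3K14cr region. The 145 overlapping pairs were sorted, in this order, into those with both borders within 100 bp, those with Kcr inside H3K14cr, those with H3K14cr inside Kcr and those that were staggered. Kcr lay inside in 70 pairs, or 48.3% (40.3 to 56.3%), against 227 of 638, or 35.6% (32.0 to 39.4%), in the long arms. The difference was 12.7 points (3.86 to 21.5). It was 11.97 points (-0.32 to 24.1) on chromosome 4 and 16.6 points (4.04 to 29.2) on chromosome 10. Staggered pairs were fewer, with 33 pairs, or 22.8% (16.7 to 30.2%), against 34.2% (30.6 to 37.9%), a difference of -11.4 points (-18.6 to -3.12). Pairs with the same borders made up 20.7% and 22.6%, and H3K14cr inside Kcr 8.28% and 7.68%. Both of these differences had intervals that included 0. The H3K14cr region of a pair was wider than its Kcr partner by a median factor of 1.20 in the short arms, 1.11 in the long arms and 1.10 over the 7027 pairs of all chromosomes. Shared Kcr regions had median widths of 1155 bp in the short arms and 1317 bp in the long arms, and shared H3K14cr regions 1466.5 and 1609 bp. Pair classes were not compared at like widths, so nesting beyond these widths was not tested. The nearer edges of a pair still lay a median of 47 bp apart, beside 54 bp in the long arms.

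The pair with the most shared bases on chromosome 4 was the widest Kcr region, at 5846993 to 5849169, all of whose 2176 bp lay in H3K14cr. On chromosome 10 it was the Kcr region at 2887603 to 2889973, all of whose 2370 bp lay in H3K14cr.

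Windows without Kcr were more frequent in the short arms. In both arms most of them held H3K14cr, but at the median fewer H3K14cr regions than windows with Kcr. Longer gaps and more empty windows come with a lower density by itself, and spacing beyond density was not tested. The median gap between neighbouring Kcr regions was 29.7 kb in the short arms and 20.2 kb in the long arms, and for H3K14cr 15.1 and 11.03 kb. Of 119 windows of 100 kb in the short arms, 33, or 27.7% (20.5 to 36.4%), held no Kcr midpoint, against 36 of 347, or 10.4% (7.59 to 14.03%), in the long arms. Without H3K14cr were 6, or 5.04% (2.33 to 10.6%), against 5, or 1.44% (0.62 to 3.33%). On chromosome 4, 22 of 67 windows lacked Kcr and 19 of these held H3K14cr. The median over the 22 windows was 2 H3K14cr regions. Windows with Kcr there held a median of 5 H3K14cr regions. On chromosome 10, 11 of 52 windows lacked Kcr and 8 of these held H3K14cr. The median was 1 H3K14cr region over the 11 windows and 5 over the windows with Kcr. In the long arms 31 of the 36 windows without Kcr held H3K14cr. No window of the short or long arms held Kcr and lacked H3K14cr. The longest Kcr gap on chromosome 4 ran from 3662549 to 4038041 (375.5 kb) and held the midpoints of 9 H3K14cr regions. The last of them, 4036859 to 4039210, ran past the gap and overlapped the Kcr region that closed it. The longest Kcr gap on chromosome 10 ran from 4967477 to 5252165 (284.7 kb) and contained 5 H3K14cr regions. The longest H3K14cr gaps, from 7621714 to 7851602 (229.9 kb) on chromosome 4 and from 3136872 to 3339798 (202.9 kb) on chromosome 10, contained no Kcr region. The longest gaps were not confined to the short arms. The long arm of chromosome 4 had a Kcr gap of 478.4 kb and an H3K14cr gap of 335.4 kb, and that of chromosome 10 gaps of 289.6 and 148.0 kb.

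The Kcr-poorest full window of the short arms, from 3000001 to 4000000 on chromosome 4, shows the make-up of such a stretch. Its 7 Kcr regions were 826 to 1138 bp wide, all under the whole-list median of 1205 bp, and 5 of them overlapped H3K14cr. The first, 3118117 to 3119115, lay inside an H3K14cr region of 1210 bp, and the next, 3150716 to 3151854, inside one of 1603 bp. The third, 3249575 to 3250531, shared 867 bp with an H3K14cr region from 3249664 to 3250762. The regions at 3562255 to 3563145 and 3604454 to 3605515 had no H3K14cr region on them, and lay 5677 and 3458 bp from the nearest. The region at 3612735 to 3613561 (826 bp) sat against the higher-coordinate border of an H3K14cr region of 4608 bp. The last, 3661523 to 3662549, lay beside the longest Kcr gap of the arm and shared 1010 bp with an H3K14cr region. The window held 34 H3K14cr regions in all.

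With both chromosomes summed, close neighbours were fewer in the short arms. A lower density by itself brings this, and spacing beyond density was not tested. Another Kcr region within 10 kb was found for 36.1% (29.8 to 43.0%) of short-arm Kcr regions and 46.7% (43.6 to 49.9%) of long-arm ones. For H3K14cr the shares were 58.6% (54.1 to 62.9%) and 71.7% (69.6 to 73.6%). By chromosome, the H3K14cr shares were 54.6% (48.4 to 60.6%) and 74.1% (71.6 to 76.4%) on chromosome 4, but 63.1% (56.5 to 69.1%) and 66.6% (62.7 to 70.2%) on chromosome 10, where the intervals overlapped. The Kcr intervals overlapped on each chromosome, with 36.4% (27.6 to 46.2%) and 47.4% (43.5 to 51.3%) on chromosome 4 and 35.9% (27.3 to 45.5%) and 45.5% (40.2 to 50.8%) on chromosome 10. The densest 100 kb windows, which were looked up after the data had been seen, held 6 Kcr and 6 H3K14cr regions on chromosome 4 (4400001 to 4500000) and 8 Kcr and 5 H3K14cr regions on chromosome 10 (3900001 to 4000000). The second of these held the widest Kcr region of its arm. The densest H3K14cr window on chromosome 10, from 3000001 to 3100000, held 9 H3K14cr regions and 1 Kcr region. On chromosome 4 the densest, from 7900001 to 8000000, held 11 H3K14cr and 5 Kcr regions. Kcr regions alone lay a median of 4179 bp from the nearest H3K14cr region in the short arms and 4698 bp in the long arms. H3K14cr regions alone lay a median of 19547 bp from the nearest Kcr region in the short arms and 11455.5 bp in the long arms. A lower density of the other mark by itself brings longer distances. These distances were not compared with those of other positions in the arms.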

How the data were processed

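Digested chromatin of rice seedling leaves was precipitated with 1 antibody per library and, per the labels' protocols, sequenced on an Illumina platform. Per the submitters' processing notes, the tool used was Bowtie. Not given in the sources used here are the genome build, the region caller and its threshold, the part played by the mock sample and the treatment of reads that match several places. The authors deposited 1 list of enriched regions per mark, whose values are region starts and ends in base pairs, with no read number. The depth per sample is unknown.

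Positions are printed as deposited, and width was end minus start. Chromosome length was taken as the last region end. Densities have exact Poisson intervals, their ratios exact conditional binomial intervals, shares Wilson intervals, differences of shares Newcombe intervals and medians order-statistic intervals. Windows were laid from the start of each arm interval. No p-value was computed, and nothing was resampled. The Kcr density ratio and the share of Kcr regions overlapping H3K14cr were tested in 50 simulations with regions drawn independently of each other. The regions were drawn on evenly spaced slots, so their numbers varied less than the intervals assume. All simulated Kcr regions had the same width, so the median width was fixed in advance and its interval was not tested. The other measures, and regions that depend on their neighbours, were not tested in this way. Python 3.11.15, numpy 2.4.6, pandas 2.3.3 and scipy 1.17.1 were used.

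The arms, measures and named regions were chosen with earlier results of these data known. Named regions are, in each short arm, the 2 widest of each mark, the widest of each mark alone, the longest gap, the pair sharing most bases and the poorest and richest 1 Mb windows; others are said to be chosen later. The 7 regions of the poorest Kcr window were listed after their values were seen. Genes and sequences were not used here, since the build of the lists could not be matched to the available gene table.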

Additional observations from a re-analysis of the deposited data

How the results depend on the processing

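No paired analysis was possible because the replicates of a mark come combined in 1 list, which also kept single replicates from being left out. Over 101 alternatives to 14 results, 73 values stayed inside the counting interval of the reported value, 28 left it and none changed the direction of a density ratio; the 7 without the first 7 Mb of the long arms were added after seeing the data. The Kcr density ratio was 0.72 on chromosome 10 alone, 0.41 in the wider 50% of each list and 0.50 without the first 7 Mb, and the H3K14cr ratio 0.84, 0.64 and 0.63. The Kcr share was 21.2% of covered bases in the short arms and 26.2% in the long arms, and 24.6% of short-arm regions in the wider 50%. Overlapping Kcr regions made up 59.9% (short) and 55.8% (long) with 50% reciprocal overlap. With both lists cut to their wider 50%, which also removed narrower H3K14cr partners, the order turned, with 46.6% and 47.8%. Overlapping H3K14cr regions made up 25.6% and 29.2% with 50% of the region covered, 25.6% and 28.6% with reciprocal overlap and 15.2% and 24.2% in the wider 50%; in the chromosome 10 long arm the share was 36.9%. The long-arm median width of Kcr was 1188 bp on chromosome 10 and 1283 bp without the first 7 Mb, and that of H3K14cr 1751 bp on chromosome 4 and 1601.5 bp on chromosome 10. Short-arm windows without Kcr were 47.5% at 50 kb and 6.78% at 200 kb, and without H3K14cr 17.2% and 0%, changes that come with window size. Overlap shares in the wider 50% are those of 2 cut lists, so narrower partners are missing from them. The cause was not tested for the remaining changes. Unknown depth limits every statement on regions of 1 mark alone.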
